A study of Mus musculus with 12 samples.

Results

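The genes described here are 32 genes of the exocrine pancreas: 23 secreted hydrolases with colipase, 5 proteins of the zymogen granule or endoplasmic reticulum, and 4 transcription factors of the acinar cell. They were chosen by name from the gene count matrix, which held 24421 genes, and all 32 were found in it. Pancreatic islets were isolated from mice and profiled by RNA sequencing in 12 libraries. They form 6 groups of 2, lettered A and B: knockout (Bmal1fl/flRIPCreERT/+) and control (Bmal1fl/fl) islets taken 24 h after citrate buffer (vehicle), 24 h after streptozotocin (STZ) and 4 weeks (4 wk) after STZ. Bmal1 encodes a transcription factor of the circadian clock. All 12 libraries came from mice with loxP-flanked Bmal1, and the knockout mice also carried a Cre recombinase fused to an oestrogen receptor domain (CreERT) and driven by the rat insulin promoter (RIP), which directs it to beta cells. STZ is a toxin taken up by beta cells, given here at a submaximal dose. The series asks how loss of Bmal1 in beta cells modifies the islet response to STZ injury. Whether the 2 libraries of a group come from different mice is not stated, so every p-value below rests on library spread that may be technical only.

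Acinar cells make the digestive enzymes of pancreatic juice and store them as inactive zymogens in granules. Ptf1a and Rbpjl form, with an E protein, the complex that switches on the enzyme genes. Nr5a2 is a nuclear receptor that binds many of the same genes, and Bhlha15 (Mist1) drives the build-up of the secretory apparatus. Islets lie within exocrine tissue, and acinar cells can remain attached to them after isolation. The labels call the preparations predominantly beta cells. The 32 genes nevertheless took 7.6% to 32.04% of all counts per library, while 11 beta-cell genes took 1.97% to 15.76%. In bulk tissue, fewer cells of a type and less RNA per cell cannot be told apart, so a lower level below can be either.

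Total counts per library were 101772241 to 127207523, and the lowest count of any of the 32 genes in any library was 143, for Ptf1a. The targeted gene was checked first. The level of Arntl, the gene symbol of Bmal1, in counts per 1000000 counts (CPM), was 17.83 and 19.93 CPM in knockout vehicle, against 8.767 and 8.331 CPM in control vehicle, so the whole-gene level under vehicle went against the label. It was 8.882 and 9.433 CPM in knockout STZ 24 h, against 11.2 and 10.77 CPM in control STZ 24 h, and 11.36 and 11.6 CPM in knockout STZ 4 wk, against 20.62 and 20.36 CPM in control STZ 4 wk. Coverage of exon 8 of Arntl relative to the mean of its transcript was 0.627 to 1.37 in the 6 knockout libraries and 1.56 to 1.99 in the 6 control libraries, with no overlap; which exon is floxed is not labelled. The coverage of exon 8 itself was 39.41 and 36.41 in knockout vehicle, against 35.37 and 32.23 in control vehicle, so it was not lower in knockout there. It was 30.12 and 23.97 in knockout STZ 24 h, against 56.62 and 57.56 in control STZ 24 h. At 4 wk the exon had a coverage of 31.76 and 26.24 in knockout, against 100.6 and 111.3 in control.

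The PTF1 complex is known to bind an E-box together with a TC-box, and the windows 250 bases upstream of the start of 26 of the 32 genes could be searched (RefSeq, GRCm38.p6). An E-box written CACCTG, on either strand, stood in 15 of 26 windows (57.69%), against 19.43% of 27025 genes. A TC-box written TTTCCC, on either strand and able to share 1 base with that E-box, stood in 7 of 26 (26.92%), against 24.39% of all genes. Prss1, Prss2, Cela1, Cela2a and Cel held both (19.23%), against 4.2% of all genes. A match describes letters in a window and is not a shown binding site. Windows are printed for 4 genes that the results turn on, read along the strand of the gene with the motifs in capitals: the abundant trypsinogen Prss2 (chr6:41521526-41521775, plus strand), the trypsinogen Prss3 that left the other enzymes (chr6:41377614-41377863, minus strand), the elastase Cela1 with both motifs side by side (chr15:100687921-100688170, minus strand) and the factor Bhlha15 (chr5:144190036-144190285, plus strand).
Prss2: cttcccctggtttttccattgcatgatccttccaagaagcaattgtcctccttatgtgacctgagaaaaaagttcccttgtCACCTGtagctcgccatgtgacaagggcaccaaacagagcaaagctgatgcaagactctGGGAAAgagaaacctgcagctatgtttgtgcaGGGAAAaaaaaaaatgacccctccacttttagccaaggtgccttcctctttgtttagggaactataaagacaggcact
Prss3: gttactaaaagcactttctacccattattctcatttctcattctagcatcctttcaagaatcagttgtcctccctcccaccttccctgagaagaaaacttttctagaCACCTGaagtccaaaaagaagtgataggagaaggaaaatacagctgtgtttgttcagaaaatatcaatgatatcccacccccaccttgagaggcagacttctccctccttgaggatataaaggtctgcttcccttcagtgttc
Cela1: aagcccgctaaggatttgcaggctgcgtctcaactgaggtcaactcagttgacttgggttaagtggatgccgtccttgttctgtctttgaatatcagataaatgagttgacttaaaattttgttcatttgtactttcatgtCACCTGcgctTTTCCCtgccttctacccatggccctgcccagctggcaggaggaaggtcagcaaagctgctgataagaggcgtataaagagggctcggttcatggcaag
Bhlha15: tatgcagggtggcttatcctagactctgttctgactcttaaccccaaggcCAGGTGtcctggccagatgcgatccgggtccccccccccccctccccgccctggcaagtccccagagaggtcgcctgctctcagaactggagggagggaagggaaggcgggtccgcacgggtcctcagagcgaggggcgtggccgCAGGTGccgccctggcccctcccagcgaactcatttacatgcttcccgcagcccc
Prss2 held the E-box and 2 TC-boxes in reverse, Prss3 the E-box alone, Cela1 both, and Bhlha15 2 E-boxes in reverse.

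Per transcript length, in transcripts per 1000000 (TPM), the most abundant of the 32 genes in control vehicle islets were Prss2 at 39860 ± 1158 TPM and Pnlip, the main pancreatic lipase, at 39610 ± 1917 TPM (SD, n = 2 each), places 3 and 4 among all genes. These neighbours did not differ beyond their spread. Cpb1, a carboxypeptidase, held place 6 and the trypsinogen Try4 place 7. Among the enzymes the lowest were Amy1, an amylase known best from the salivary gland, at 74.55 ± 6.437 TPM and Ctrc, a chymotrypsin-like protease, at 29.7 ± 2.607 TPM. The factors stood near the bottom of the order: Bhlha15 at 48.97 ± 0.9985, Rbpjl at 11.06 ± 1.099, Nr5a2 at 7.852 ± 1.051 and Ptf1a at 5.523 ± 0.06089 TPM (SD, n = 2 each). In knockout vehicle islets Prss2 was again first, at 14060 ± 1690 TPM, and Ptf1a last, at 1.655 ± 0.6256 TPM (SD, n = 2 each). In knockout islets 24 h after STZ the trypsinogen Try4 was first, at 46320 ± 1748 TPM, ahead of Prss2 at 42750 ± 405 TPM (SD, n = 2 each). Pnlip was first in the other 3 groups.

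The level of each gene is given below as CPM with trimmed-mean (TMM) scaled library sizes, A before B. With 2 libraries a group, a lack of overlap describes the values and is not a test. The share of all genes without overlap is not given. Of the serine proteases, Prss2 had 5989 and 6154 CPM in knockout vehicle, against 27230 and 26600 CPM in control vehicle. It had 26920 and 27650 CPM in knockout STZ 24 h, against 11900 and 13660 CPM in control STZ 24 h. It had 13630 and 13750 CPM in knockout STZ 4 wk, against 10220 and 10720 CPM in control STZ 4 wk. The genotypes did not overlap in any of the 3 conditions, with knockout lower under vehicle and higher after STZ.

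Ctrb1, a chymotrypsinogen, had 5647 and 2808 CPM in knockout vehicle, against 20690 and 15570 CPM in control vehicle. It had 25590 and 32590 CPM in knockout STZ 24 h, against 10600 and 12110 CPM in control STZ 24 h, and 6292 and 16330 CPM in knockout STZ 4 wk, against 5263 and 10890 CPM in control STZ 4 wk. The groups overlapped at 4 wk, where A and B of 1 group lay further apart than the genotypes. Cela2a, an elastase, had 3980 and 2338 CPM in knockout vehicle, against 15620 and 11780 CPM in control vehicle. It had 15430 and 18370 CPM in knockout STZ 24 h, against 9816 and 10850 CPM in control STZ 24 h, and 6232 and 13270 CPM in knockout STZ 4 wk, against 5920 and 10050 CPM in control STZ 4 wk. It showed the same order of groups as Ctrb1 and overlapped at 4 wk too.

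Cpa1, a carboxypeptidase, had 5055 and 3942 CPM in knockout vehicle, against 20030 and 18310 CPM in control vehicle. It had 24200 and 26030 CPM in knockout STZ 24 h, against 12340 and 12930 CPM in control STZ 24 h, and 10830 and 15370 CPM in knockout STZ 4 wk, against 9433 and 12000 CPM in control STZ 4 wk. It overlapped between genotypes at 4 wk and not in the other conditions. The lipase Pnlip had 10390 and 10640 CPM in knockout vehicle, against 48040 and 48230 CPM in control vehicle. It had 48830 and 47580 CPM in knockout STZ 24 h, against 27620 and 26480 CPM in control STZ 24 h, and 30590 and 29910 CPM in knockout STZ 4 wk, against 23100 and 21880 CPM in control STZ 4 wk. Its genotypes were apart in every condition.

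Amy1 had 22.65 and 28.73 CPM in knockout vehicle, against 104.6 and 110.5 CPM in control vehicle. It had 150.8 and 132.4 CPM in knockout STZ 24 h, against 69.63 and 63.86 CPM in control STZ 24 h, and 108.9 and 74.04 CPM in knockout STZ 4 wk, against 66.55 and 45.45 CPM in control STZ 4 wk. Its genotypes did not overlap in any condition. Of a list of 7 salivary markers that includes Amy1, 4 or 5 genes were at 0 in each group. Rnase1, the secreted ribonuclease, had 2577 and 2567 CPM in knockout vehicle, against 11180 and 11200 CPM in control vehicle. It had 12930 and 12990 CPM in knockout STZ 24 h, against 5656 and 6249 CPM in control STZ 24 h, and 5991 and 5915 CPM in knockout STZ 4 wk, against 4857 and 4896 CPM in control STZ 4 wk. Its libraries of 1 group lay closer together than those of Ctrb1 and Cela2a. Gp2, the main membrane glycoprotein of the zymogen granule, had 845.0 and 933.8 CPM in knockout vehicle, against 4151 and 4271 CPM in control vehicle. It had 4321 and 4082 CPM in knockout STZ 24 h, against 2219 and 2181 CPM in control STZ 24 h, and 2351 and 1984 CPM in knockout STZ 4 wk, against 1703 and 1478 CPM in control STZ 4 wk. Its genotypes were apart in every condition.

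Among the factors, Bhlha15 had 62.59 and 51.54 CPM in knockout vehicle, against 142.4 and 137.4 CPM in control vehicle. It had 98.34 and 107.3 CPM in knockout STZ 24 h, against 77.12 and 77.58 CPM in control STZ 24 h, and 71.04 and 96.81 CPM in knockout STZ 4 wk, against 69.32 and 81.94 CPM in control STZ 4 wk. Its genotypes overlapped at 4 wk and were apart in the other conditions, though the difference at 24 h did not pass the test given below. Its range over the 12 libraries was the narrowest of the 32 genes, 1.457 on the log2 CPM scale, against 2.204 to 5.784 for the others. Ptf1a had 1.032 and 1.547 CPM in knockout vehicle, against 7.096 and 6.551 CPM in control vehicle. It had 5.506 and 5.199 CPM in knockout STZ 24 h, against 3.787 and 3.84 CPM in control STZ 24 h, and 3.68 and 3.641 CPM in knockout STZ 4 wk, against 3.248 and 2.803 CPM in control STZ 4 wk. Its genotypes did not overlap in any condition, but the differences at 24 h and at 4 wk did not pass the test given below. It was the lowest of the 32 genes per length.

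Rbpjl had 7.344 and 4.027 CPM in knockout vehicle, against 24.56 and 20.0 CPM in control vehicle. It had 38.23 and 45.94 CPM in knockout STZ 24 h, against 15.34 and 15.6 CPM in control STZ 24 h, and 8.51 and 19.66 CPM in knockout STZ 4 wk, against 7.697 and 14.06 CPM in control STZ 4 wk. It overlapped between genotypes at 4 wk, as Ctrb1 and Cela2a did. Nr5a2 had 6.507 and 8.054 CPM in knockout vehicle, against 22.35 and 25.32 CPM in control vehicle. It had 35.65 and 34.57 CPM in knockout STZ 24 h, against 13.53 and 12.84 CPM in control STZ 24 h, and 16.5 and 13.71 CPM in knockout STZ 4 wk, against 8.643 and 7.15 CPM in control STZ 4 wk. Its genotypes were apart in every condition.

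**Figure D1:**
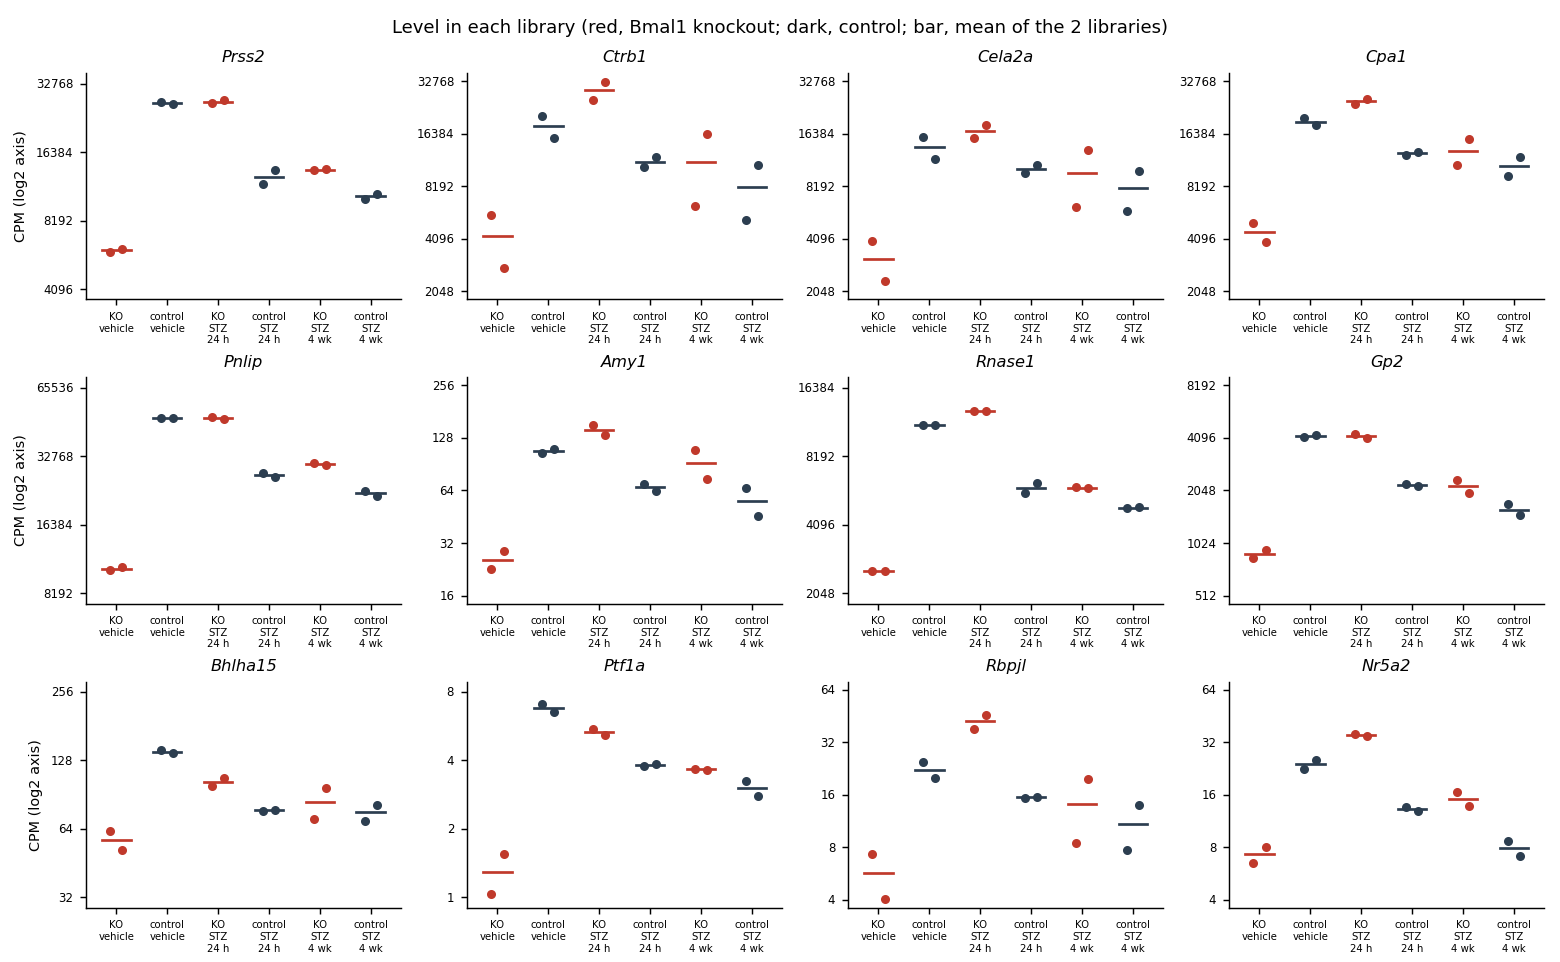
CPM (log2 axis) of 8 enzyme and granule genes and the 4 factors in each library, with knockout groups in red, control groups in dark and a bar at the mean of 2 libraries. In all 12 panels knockout vehicle is the lowest group, and for Prss2 it lies at 5989 and 6154 CPM against 27230 and 26600 CPM in control vehicle.

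Under vehicle, the acinar genes of every class were about 4 times lower in knockout than in control islets. Of the 32 genes, 30 were lower in knockout and 0 higher at an adjusted p under 0.05 (edgeR's quasi-likelihood test, Benjamini-Hochberg over all 17411 genes tested), where 7.59% of all tested genes were lower and 2.02% higher. The median log2 fold change was -2.14, against 0.001 over all genes. By class, 22 of 23 secreted enzymes fell (median -2.13), 4 of 5 granule and endoplasmic reticulum proteins (median -2.24) and 4 of 4 factors (median -1.84). Pnlip fell by 2.19 (SE 0.09, adjusted p = 1.8e-06), Rnase1 by 2.12 (SE 0.09, adjusted p = 2.29e-06) and Gp2 by 2.24 (SE 0.13, adjusted p = 9.07e-06). The change of largest size was that of Cuzd1, a zymogen granule membrane protein, at -2.42, and that of smallest size was Bhlha15, at -1.29 (SE 0.17, adjusted p = 0.00126). Ptf1a fell by 2.40 (SE 0.21, adjusted p = 0.00012), Rbpjl by 1.97 (SE 0.45, adjusted p = 0.025) and Nr5a2 by 1.71 (SE 0.16, adjusted p = 0.000196). Ctrc (log2 fold change -1.69, adjusted p = 0.0735) and Sycn, syncollin of the granule (-1.88, adjusted p = 0.0602), did not pass. Leaving out each of the 12 libraries in turn kept 25 of the 30 calls each time; Ctrb1, Cela2a, Cela3b, Ctrl and Rbpjl were lost at least once.

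At 24 h after STZ the direction between the genotypes was the other one: the acinar genes were higher in knockout than in control islets. Of the 32 genes 23 were higher and 0 lower, with a median log2 fold change of 1.03, where 23.7% of all tested genes were higher and 19.3% lower. That size depends on the scaling: with libraries scaled on pan-endocrine genes the median of the 32 genes was 2.71 and that of all genes 1.68. A change of scaling moves nearly every gene of a comparison alike, so the lead over the median gene could hardly change. With TMM scaling 11 of the 12 pan-endocrine genes were themselves lower in knockout there, with a median of -1.671. The 23 higher genes were 17 of 23 secreted enzymes, among them all 6 trypsinogens, 4 of 5 granule and endoplasmic reticulum proteins and 2 of 4 factors. Prss2 rose by 1.09 (SE 0.10, adjusted p = 4.64e-05), Pnlip by 0.83 (SE 0.09, adjusted p = 0.00011) and Rnase1 by 1.12 (SE 0.09, adjusted p = 2.41e-05). Prss3 had the highest change, 3.87 (SE 0.19, adjusted p = 2.8e-06), and Bhlha15 the lowest, 0.41 (adjusted p = 0.0741). Nr5a2 rose by 1.41 (SE 0.16, adjusted p = 0.000146) and Rbpjl by 1.44 (SE 0.44, adjusted p = 0.0264). The calls of Rbpjl, Cel, Clps and Pla2g1b were each lost when a single library was left out. Ptf1a did not pass (adjusted p = 0.078), nor did Ctrb1, Ctrc, Ctrl, Cela1, Cela2a, Cela3b and Sycn.

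At 4 wk after STZ 10 of the 32 genes were higher in knockout and 0 lower, with a median of 0.36, where 19.9% of all tested genes were higher and 7.84% lower. With pan-endocrine scaling 24 were higher, with a median of 1.10 over the 32 genes and 0.73 over all genes. The pan-endocrine genes were themselves lower in knockout there with TMM scaling, 9 of 12 with a median of -0.672, so scaling on them raises all genes. The share of all genes called with that scaling is not given. The 10 were the lipase genes Pnlip (0.43), Pnliprp1 and Pnliprp2, Amy1 (0.71), Rnase1 (0.29), Prss2 (0.39), the granule or reticulum genes Zg16 (0.64), Gp2 (0.45) and Erp27 (0.53), and the factor Nr5a2. Nr5a2 had the highest change, 0.94 (adjusted p = 0.0023), and Prss3 the lowest, -0.20, which did not pass. The calls of Amy1, Prss2, Gp2 and Rnase1 were each lost when a single library was left out, and the count fell to 6 without control STZ 4 wk B. The share of the 32 genes called, 10 of 32, stood nearer to that of all genes than in the other 2 conditions.

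**Figure D2:**
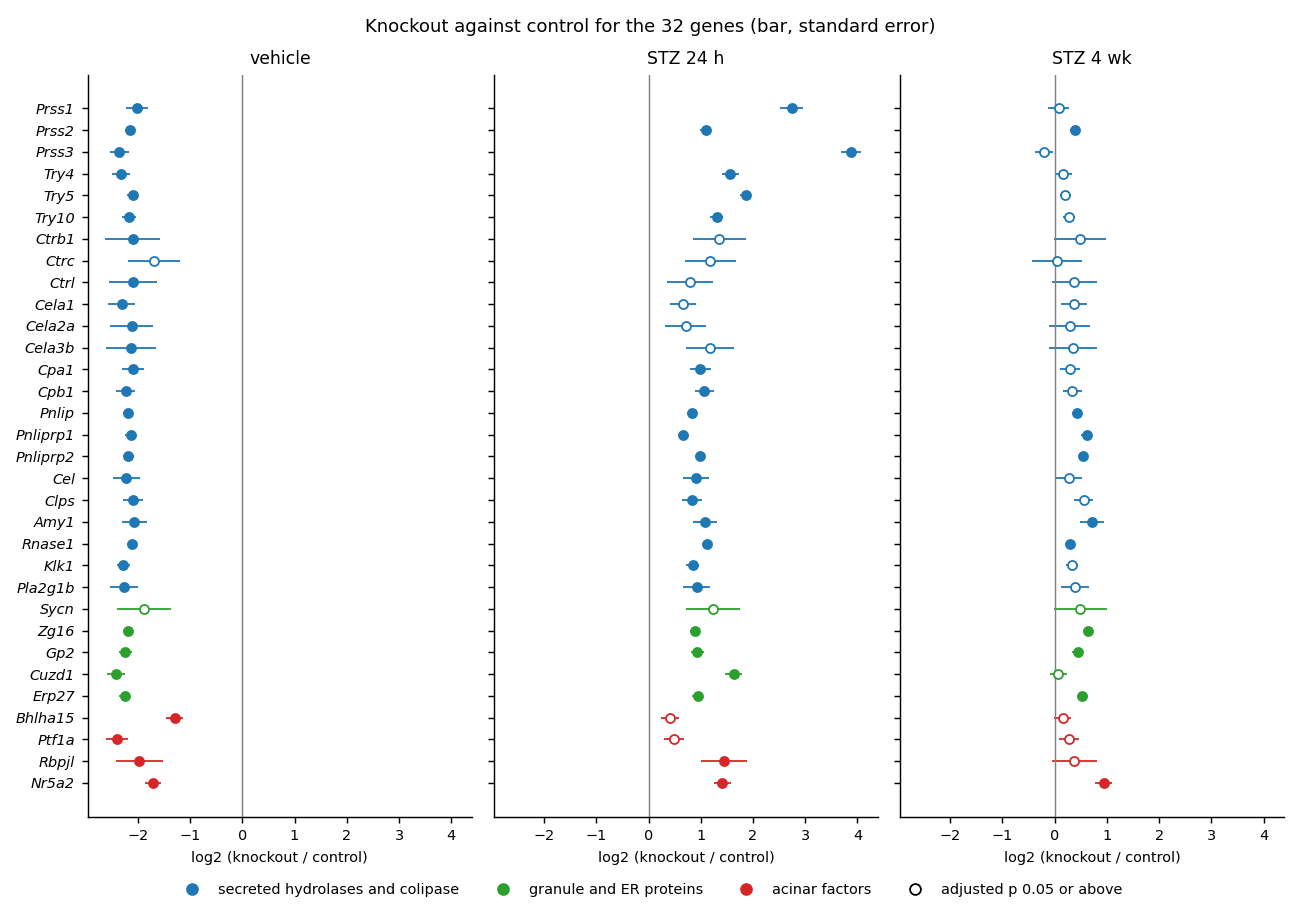
Log2 fold change of knockout over control for each of the 32 genes in the 3 conditions, with standard errors as bars and open circles for genes with an adjusted p of 0.05 or above. The points lie between -2.42 and -1.29 under vehicle, between 0.41 and 3.87 at 24 h and between -0.20 and 0.94 at 4 wk.

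Marker genes of some other cells moved with these differences, and those of others did not or did so in some conditions only. The 11 beta-cell genes took 10.33% to 15.47% of counts in knockout vehicle, against 7.109% to 8.217% in control vehicle. They took 1.97% to 2.203% in knockout STZ 24 h, against 12.48% to 13.25% in control STZ 24 h, and 4.788% to 8.074% in knockout STZ 4 wk, against 10.79% to 15.76% in control STZ 4 wk. Between the genotypes of each condition, the beta-cell share was thus higher where the acinar share was lower. Shares of the same total are tied, so a larger acinar share by itself lowers the others. With TMM scaling 0 of 11 beta-cell genes were called in knockout against control under vehicle (median 0.262). At 24 h 10 of 11 were lower and at 4 wk 9, where 19.3% and 7.84% of all tested genes were lower. Under vehicle 7.59% of all tested genes were lower in knockout and 2.02% higher. All 8 genes of a liver list were lower there, with 0.0006195% to 0.0006279% of counts in knockout vehicle, against 0.01304% to 0.01447% in control vehicle. So were 6 of 7 genes of a stomach list, of which 6 were at 0 in knockout vehicle, with 6.999e-06% to 8.843e-06% of counts in knockout vehicle, against 0.01901% to 0.02033% in control vehicle, and 6 of 13 genes of a duct list. A 10-gene macrophage list took 0.1884% to 0.1951% in knockout STZ 24 h, against 0.0273% to 0.02817% in control STZ 24 h. The liver list took 1.349% to 1.392% in knockout STZ 24 h, against 0.449% to 0.4539% in control STZ 24 h, and a 9-gene intestine list took 0.9574% to 0.9716% in knockout STZ 4 wk, against 0.02977% to 0.02999% in control STZ 4 wk. The duct list took 0.06989% to 0.07226% in knockout STZ 24 h, against 0.04745% to 0.04799% in control STZ 24 h. None of the genes of the beta-cell, macrophage, liver and duct lists was at 0 in a whole group. Under vehicle 0 of 6 endothelial genes were called, and 1 of 10 macrophage genes was lower. At 24 h 3 of 6 endothelial genes were higher in knockout and 1 lower, and 10 of 10 macrophage genes were higher. Of all tested genes 23.7% were higher there and 19.3% lower. At 4 wk 9 of 10 macrophage genes were higher and 2 of 6 endothelial genes lower. The shares of all tested genes were 19.9% higher and 7.84% lower. The intestine list took 0.008843% to 0.01133% in knockout vehicle, against 0.005384% to 0.00551% in control vehicle, though 2 of 9 genes were lower. Between the genotypes a stroma list went with the acinar genes, with 3 of 8 lower in knockout under vehicle. At 24 h 5 of 8 stroma genes were higher in knockout, where 23.7% of all tested genes were. Within control islets it did not. There 5 of 8 stroma genes were higher at 24 h after STZ than under vehicle and 1 lower, where 952 of 17411 genes were higher. Of the 23 enzymes 12 were lower in that comparison and 0 higher, where 2.1% of all tested genes were lower. The part of other tissue and of islet purity in the acinar differences was not tested.

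Within knockout islets, STZ went with a broad gain. All 32 genes were higher at 24 h after STZ than under vehicle, where 30.1% of all tested genes were higher, with a median log2 fold change of 2.45 over the 32. With pan-endocrine scaling this median was 4.45, where that of all genes was 2.00, and the medians at 4 wk were 2.15 against vehicle and -2.17 against 24 h, where those of all genes were 0.87 and -1.05. The gain ran from 0.85 for Bhlha15 (SE 0.17, adjusted p = 0.0022) to 5.03 for Prss3 (SE 0.20, adjusted p = 2.11e-07). Pnlip rose by 2.20, Ptf1a by 2.05, Nr5a2 by 2.27 and Rbpjl by 2.89. At 4 wk 29 of the 32 remained above vehicle in the test and 1 was below, with a median of 1.297, where 24.1% of all tested genes were higher and 11.7% lower. Amy1 had the highest value, 1.83, and Prss3 the lowest, -0.55 (adjusted p = 0.0371). That call on Prss3 was lost when some single libraries were left out, and its value was 0.30 (adjusted p = 0.324) with scaling on pan-endocrine genes. Prss1 (0.28) and Ctrb1 (1.42, adjusted p = 0.0606) did not pass. Between 24 h and 4 wk, 23 of the 32 fell in knockout and 0 rose, with a median of -1.02, where 15.5% of all tested genes were lower. Comparisons with 4 wk mix treatment and time, since all vehicle libraries used here are from 24 h.

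Within control islets the acinar genes went the other way. At 24 h after STZ 19 of 32 were lower than under vehicle and 0 higher, with a median of -0.84, where 2.1% of all tested genes were lower. All 6 trypsinogens fell (median -1.10), as did Pnlip, at -0.83 (SE 0.09, adjusted p = 0.000407), and Rnase1, at -0.91 (SE 0.09, adjusted p = 0.000241). The lowest value was that of Prss1, -1.36, and the highest that of Ctrc, 0.19, which did not pass. Of the factors, Bhlha15 (-0.86), Ptf1a (-0.84) and Nr5a2 (-0.85) fell and Rbpjl (-0.53) did not pass; the calls of those 3 factors were each lost when a single library was left out. At 4 wk 25 of 32 were lower than under vehicle and 0 higher, with a median of -1.18, where 3.95% of all tested genes were lower, from -2.70 for Prss3 to -0.04 for Ctrc. Between 24 h and 4 wk 9 of the 32 fell in control and 0 rose, with a median of -0.43, where 4.21% of all tested genes were lower. Of these 9 calls, that of Prss3 alone (-1.50) held in all 12 fits that left out a library.

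The difference between the genotypes in the STZ effect was tested directly as an interaction. At 24 h all 32 genes had a more positive STZ effect in knockout than in control, with a median difference of 3.16 on the log2 scale, where 21% of all tested genes did. The difference was smallest for Bhlha15, at 1.71 (SE 0.23, adjusted p = 0.000521), and largest for Prss3, at 6.22 (SE 0.26, adjusted p = 1.04e-06). All 32 calls held when any 1 library was left out. At 4 wk 31 of 32 did, with a median of 2.52, where 18.7% of all tested genes did; Ctrc (1.73, adjusted p = 0.102) did not pass. With pan-endocrine scaling the median differences were 5.27 at 24 h and 3.66 at 4 wk, where those of all genes were 2.08 and 1.13; with total-count scaling they were 2.38 and 1.89, where those of all genes were -0.79 and -0.62. The vehicle libraries enter both interactions and the vehicle comparison, so these results are not independent of each other.

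To ask whether the factors followed the enzymes, all genes were also fitted with libraries scaled to the 23 secreted enzymes. On this enzyme scale a value of 0 means that a gene changed as the enzymes did, and most genes differ from 0 because the enzymes themselves moved. Of all tested genes, 85.5%, 69.7% and 29.9% passed on it in knockout against control under vehicle, at 24 h and at 4 wk. For the effects of STZ and time the shares were 86.2% in knockout and 51.2% in control for 24 h against vehicle, 75% and 79.6% for 4 wk against vehicle, 75.5% and 9.83% for 4 wk against 24 h, and 83.4% and 79.5% for the interactions at 24 h and 4 wk. Counts of the 4 factors summed to 1117 and 1075 per 1000000 enzyme counts in knockout vehicle, against 645.1 and 662.5 in control vehicle. They summed to 526 and 545.6 in knockout STZ 24 h, against 667.9 and 641.3 in control STZ 24 h, and to 669.2 and 731.4 in knockout STZ 4 wk, against 742.9 and 770.1 in control STZ 4 wk. Bhlha15 held 55.33% to 80.79% of these factor counts per library, so the sum mostly follows Bhlha15. It alone gave 902.5 and 850.2 in knockout vehicle, against 467.7 and 480.9 in control vehicle, and 291.0 and 303.4 in knockout STZ 24 h, against 469.2 and 452.9 in control STZ 24 h. Ptf1a gave 14.88 and 25.52 in knockout vehicle, against 23.3 and 22.93 in control vehicle, and those groups overlapped.

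Bhlha15, which changed less than the enzymes in both directions, had an enzyme-scale difference between knockout and control of 0.81 under vehicle (95% interval 0.47 to 1.14, adjusted p = 0.000359) and of -0.62 at 24 h (-0.96 to -0.29, adjusted p = 0.00311). At 4 wk the value was -0.17 and did not pass. In knockout islets it lagged behind the enzymes by 1.53 from vehicle to 24 h (value -1.53, adjusted p = 4.84e-06) and by 0.66 at 4 wk (value -0.66, adjusted p = 0.00193). In control islets its values of -0.11 at 24 h and 0.31 at 4 wk after STZ, each against vehicle, did not pass. The STZ effect on this scale differed between genotypes at 24 h, at -1.43 (adjusted p = 7.82e-05), and at 4 wk, at -0.97 (adjusted p = 0.00118).

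Ptf1a, Rbpjl and Nr5a2 did not pass on the enzyme scale in any of the 11 comparisons, but their intervals were wide. Between knockout and control under vehicle, the 95% interval was -0.94 to 0.39 for Ptf1a, -0.68 to 0.91 for Rbpjl and -0.25 to 1.05 for Nr5a2. At 24 h it was -1.20 to 0.12 for Ptf1a, -0.38 to 1.20 for Rbpjl and -0.27 to 1.03 for Nr5a2. Each of these intervals reached at least 0.91 in 1 direction, so differences of that size from the enzymes were within the error. Nr5a2 came nearest to a call at 4 wk, at 0.65 (adjusted p = 0.0968). With an offset for GC content, added after seeing the data, Nr5a2 passed in 8 of 11 comparisons, among them knockout over control under vehicle at 0.36, at 24 h at 0.53 and at 4 wk at 0.68; Rbpjl passed in 2 and Ptf1a in 0. The share of all genes that passed with this offset is not given, so these counts have no background beside them. Nr5a2 has 43.25% GC, less than most of the enzymes.

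**Figure D3:**
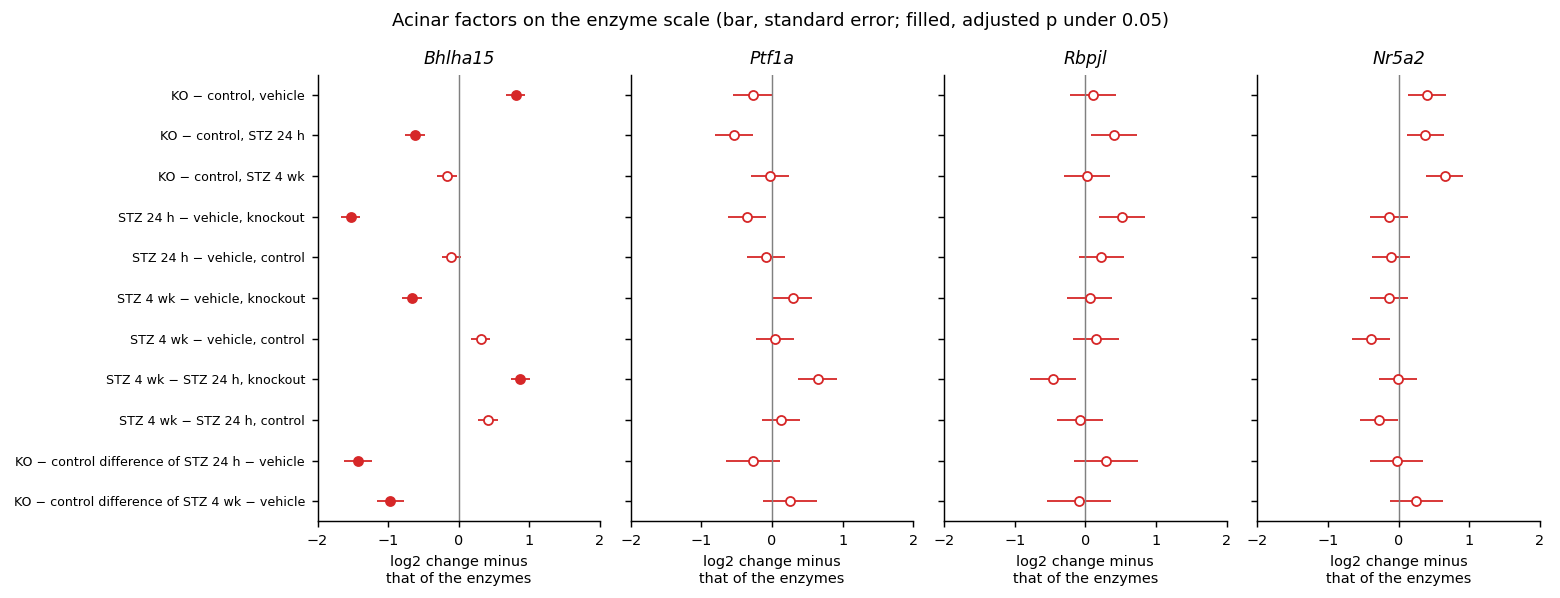
Log2 change of each factor minus that of the secreted enzymes in the 11 comparisons, with standard errors as bars and filled circles where the adjusted p was under 0.05. Bhlha15 is filled in 7 comparisons, from -1.53 to 0.87, and the other 3 factors in none.

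Among the enzymes, 4 of the 6 trypsinogens left the common course in knockout islets 24 h after STZ, and some also did so in other comparisons given below. Prss3 (mm10, chr6:41373759-41377613, minus strand) had 74.96 and 56.95 CPM in knockout vehicle, against 358.5 and 315.8 CPM in control vehicle. It had 2111 and 2186 CPM in knockout STZ 24 h, against 138.9 and 155.0 CPM in control STZ 24 h, and 39.17 and 51.16 CPM in knockout STZ 4 wk, against 48.86 and 55.21 CPM in control STZ 4 wk. It was thus over 10 times higher in knockout STZ 24 h than in any library of the STZ 4 wk and control STZ 24 h groups, and its genotypes overlapped at 4 wk. Prss1 (chr6:41458930-41463786, plus strand) had 49.02 and 49.06 CPM in knockout vehicle, against 224.9 and 170.8 CPM in control vehicle. It had 500.6 and 528.2 CPM in knockout STZ 24 h, against 75.25 and 78.75 CPM in control STZ 24 h, and 67.25 and 51.79 CPM in knockout STZ 4 wk, against 66.89 and 45.9 CPM in control STZ 4 wk.

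On the enzyme scale 4 of the 32 genes were higher in knockout than in control at 24 h and 1, Bhlha15, lower, where 10.5% of all tested genes were higher and 59.2% lower. On that scale, where the trypsinogens are themselves among the 23 scaling genes, knockout exceeded control at 24 h by 2.84 for Prss3 (SE 0.16, adjusted p = 4.73e-06), 1.71 for Prss1 (adjusted p = 0.00105), 0.83 for Try5 (adjusted p = 0.00143) and 0.53 for Try4 (adjusted p = 0.00771). Prss2 and Try10 did not pass. The call of Try4 was lost when a single library was left out. The interaction at 24 h on this scale was 3.09 for Prss3, 1.60 for Prss1, 0.82 for Try5 and 0.75 for Try4, and all 4 calls held in the 12 fits that left out a library. From 24 h to 4 wk in knockout islets Prss3 fell by 4.41 and Prss1 by 1.89 more than the enzymes. Against vehicle, 2 of the 6 trypsinogens were lower on this scale in control at 24 h. At 4 wk 3 were lower in control and 3 in knockout. Of all 17411 genes 132, 187 and 10847 were lower in these comparisons. Prss3 had -1.495 in control and -1.758 in knockout at 4 wk, and -1.048 from 24 h to 4 wk in control. The 2 calls in control at 24 h did not hold under every alternative. Over the 12 libraries the SD of the log2 ratio to the enzyme mean was 1.374 for Prss3 and 0.652 for Prss1, against 0.158 to 0.487 for the other 21 enzymes.

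Part of the reads of these genes cannot be placed with certainty. Of the windows of 75 bases along the Prss3 transcript, 53.88% also occur in Gm10334 and 16.44% in Gm5771, and 25.58% of those of Prss1 occur in Gm5771. Try4 and Try5 share 34.53%. The neighbouring model-named genes rose as well: Gm5771 had 1148 and 1183 CPM in knockout STZ 24 h, against 25.19 and 26.46 CPM in control STZ 24 h, and Gm10334 had 690.4 and 731.8 CPM in knockout STZ 24 h, against 28.37 and 30.83 CPM in control STZ 24 h. 1810009J06Rik (chr6:40964772-40968427, plus strand), which shares no such window with the trypsinogens searched, had 1691 and 1456 CPM in knockout STZ 24 h, against 0.5347 and 0.9941 CPM in control STZ 24 h. Its level was 1.046 and 1.121 CPM in knockout vehicle, against 4.654 and 5.701 CPM in control vehicle. The log2 fold changes of knockout over control at 24 h were 5.50 for Gm5771, 4.59 for Gm10334 and 11.0 for 1810009J06Rik (adjusted p of 3.44e-07, 1.5e-06 and 4.91e-07 in edgeR).

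**Figure D4:**
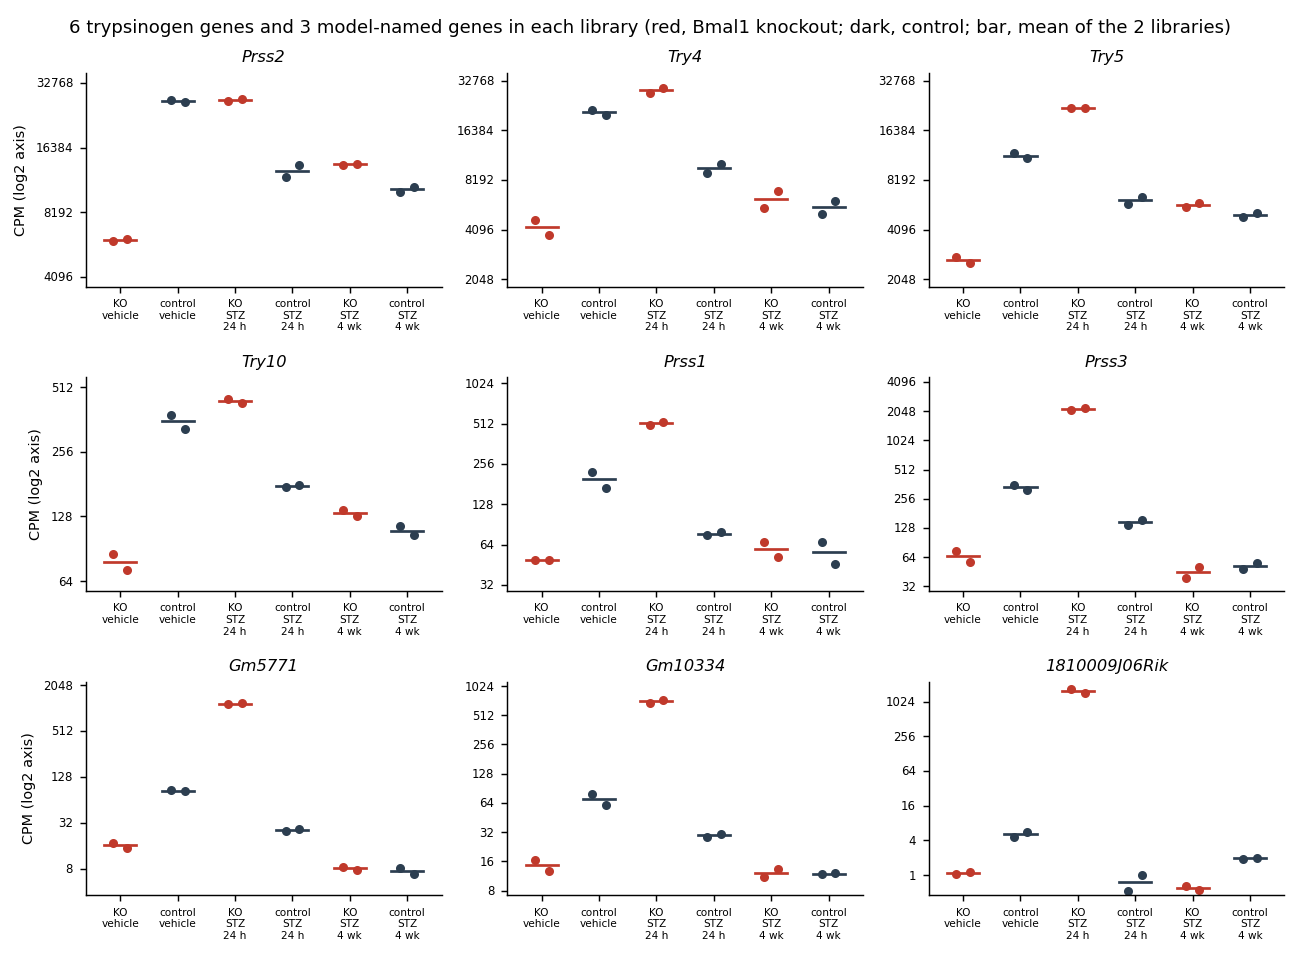
CPM (log2 axis, a separate range in each panel) of 6 trypsinogen genes and 3 model-named genes in each library, with knockout in red, control in dark and a bar at the mean of 2 libraries. Prss3 reaches 2111 and 2186 CPM in knockout STZ 24 h, against 138.9 and 155.0 CPM in control STZ 24 h, while Prss2 has about the same level there as in control vehicle.

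Other acinar genes, from lists chosen by function, were set beside the 32. Of 19 other acinar secreted genes 15 were in the count matrix and tested. The counts of this list and of the next 3 stand against 7.59% of all tested genes lower and 2.02% higher under vehicle, 19.3% and 23.7% at 24 h, and 7.84% and 19.9% at 4 wk. Under vehicle 13 of 15 were lower in knockout and 0 higher (median -2.20), among them Spink1, a trypsin inhibitor (-2.20, adjusted p = 0.00084); at 24 h 13 of 15 were higher and 0 lower (median 1.32), among them Spink1 at 1.32 (adjusted p = 0.00328). The 4 amylase copies Amy2a2, Amy2a3, Amy2a4 and Amy2a5 share most or all of their windows with another copy, so the reads of each are uncertain. Of 16 genes of the secretory apparatus and its receptors, 8 were lower and 1 higher in knockout under vehicle. Cckar, the cholecystokinin receptor, fell by 2.19 (SE 0.09), while Pdia4, a protein disulfide isomerase found in most secretory cells, rose by 0.72 (SE 0.11, adjusted p = 0.00276). At 24 h 5 of 16 were higher, among them Cckar (0.97) and Gatm, an enzyme of creatine synthesis (1.08), and 3 were lower: the muscarinic receptor Chrm3, which beta cells express too (-1.81), Dnajc12 (-1.12) and the granule protein Rab3d (-0.87). At 4 wk 4 were higher and 4 lower. At 24 h the shares of this list called in each direction were near those of all genes.

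Of 11 other pancreatic transcription factors, Gata4, a factor of acinar development, was lower in knockout under vehicle (-1.44, SE 0.17, adjusted p = 0.000692) and Foxa2 higher (0.33, adjusted p = 0.0487), and the other 9 did not pass. At 24 h Gata4 (1.57), Gata6 (0.67) and Onecut1 (2.02) were higher and Foxa2 lower (-1.30). At 4 wk Gata4 had 26.99 and 33.89 CPM in knockout, against 5.362 and 5.941 CPM in control, a difference of 2.43 (SE 0.17, adjusted p = 1.6e-05), while the median of the 32 genes was 0.36. Gata6 differed there by 1.86 and Onecut1 by 2.09. Gata4, Gata6 and Onecut1 are also expressed in tissues of the gut or liver, and their gain at 4 wk went with the intestine list given above; the part of that tissue in it was not tested.

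Among 7 genes of acinar stress, mostly Reg genes that acinar cells are known to switch on in injury, Reg3g and Reg3b changed more than the enzymes. Reg3g had 39.63 and 43.0 CPM in knockout vehicle, against 530.4 and 519.4 CPM in control vehicle, and all 7 genes were lower in knockout. It had 453.4 and 422.6 CPM in knockout STZ 24 h, against 69.61 and 68.52 CPM in control STZ 24 h, and 103.9 and 83.51 CPM in knockout STZ 4 wk, against 7.525 and 6.531 CPM in control STZ 4 wk. At 24 h 6 of the 7 were higher in knockout, and at 4 wk 5 of the 7. On the enzyme scale the difference of Reg3g between knockout and control was -1.55 under vehicle (adjusted p = 0.000308), 1.63 at 24 h (adjusted p = 0.000516) and 3.46 at 4 wk (adjusted p = 4.8e-05). The corresponding values of Reg3b were -1.10, 1.75 and 2.24. Reg1 did not pass on the enzyme scale in any of these 3 comparisons, at -0.35, 0.25 and 0.13. The intestine also expresses Reg3 genes, and its part was not tested.

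The gap between A and B of a group followed the GC content of the transcripts. Across the 32 genes the correlation of the log2 gap with GC content was 0.755 in knockout vehicle, 0.772 in control vehicle, -0.766 in knockout STZ 24 h, -0.593 in control STZ 24 h, -0.784 in knockout STZ 4 wk and -0.756 in control STZ 4 wk. These are correlations across genes, which share their libraries and are not independent replicates. The same correlation over 16708 genes ran from -0.73 to 0.641 by group. GC content ran from 40.15% for Amy1 to 57.82% for Rbpjl. In knockout STZ 4 wk, A was lower than B by 1.376 for Ctrb1 (57.63% GC) and higher than B by 0.553 for Amy1. With an offset for GC content, added after seeing the data, 32 of the 32 genes were called in knockout against control under vehicle, 31 at 24 h and 18 at 4 wk. The share of all genes called with this offset is not given, so these counts are not read as a gain of the 32 genes.

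**Figure D5:**
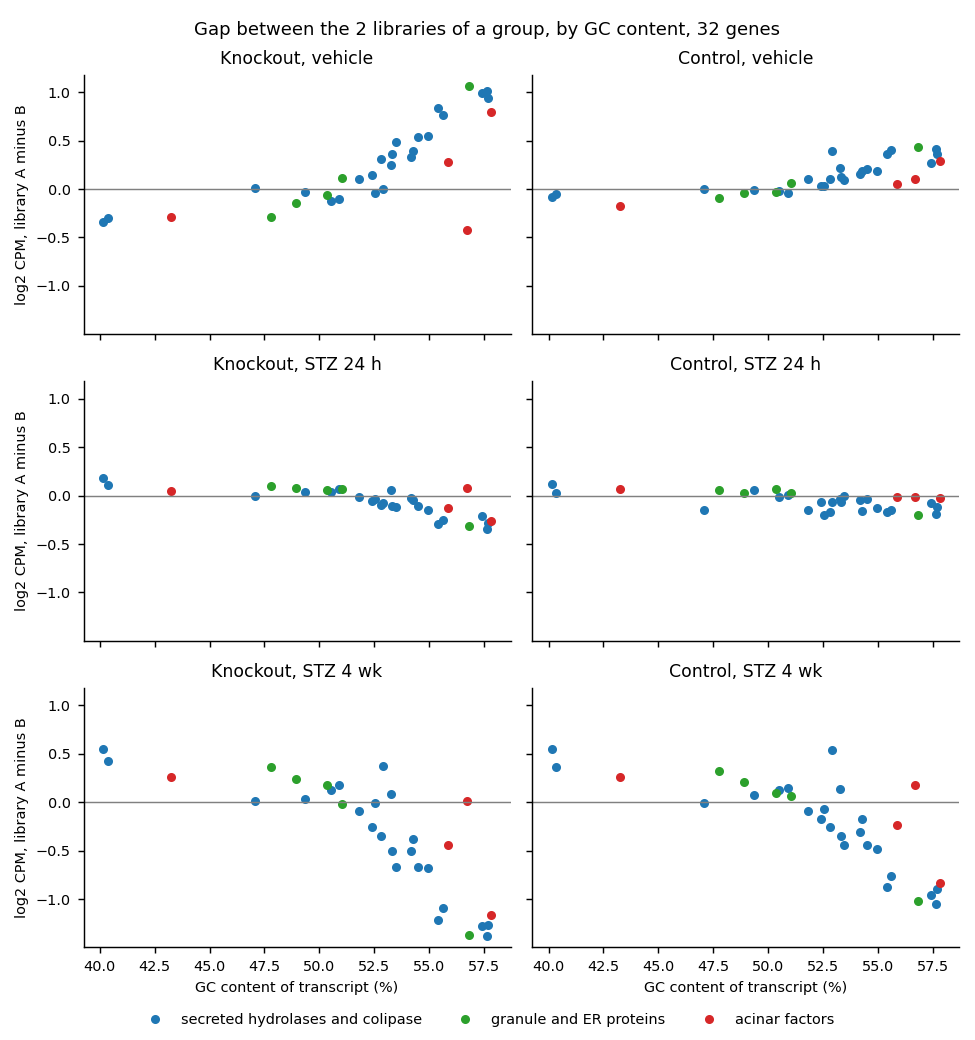
Log2 CPM of library A minus library B against the GC content of the transcript (%) for the 32 genes in each of the 6 groups, coloured by class. The correlation across genes is 0.755 in knockout vehicle and -0.784 in knockout STZ 4 wk where Ctrb1 lies at -1.376.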

How the data were processed

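Islet RNA of 12 libraries was sequenced as stranded mRNA libraries with paired reads of 100 bases, per the labels. The authors deposited estimated counts (expected counts) per gene, not scaled for depth, together with a transcript file for each library. Transcripts were quantified with StringTie 1.3.6, per the file headers, on mm10, per the submitters' processing notes. The sources used here do not give an aligner. TPM values and coverage were deposited by the authors in the transcript files. In all libraries the deposited count of a transcript was its coverage multiplied by its length and divided by 75, rounded up, whereas the reads had 100 bases; counts are thus not read numbers, but the ratio is the same throughout. Total counts were 101772241 to 127207523. Standard errors and intervals come from the spread of libraries, with n = 2 a group.

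Counts, whole as deposited, entered edgeR 4.0.16 under R 4.3.3 (TMM, filterByExpr, robust quasi-likelihood F test, two-sided) in 1 fit of 6 group means. Of 24421 genes 17411 were tested, with 6 residual degrees of freedom and a common dispersion of 0.0492. P-values were adjusted by Benjamini-Hochberg over all tested genes, with a threshold of 0.05. CPM used TMM-scaled library sizes, and log2 CPM a pseudocount of 0.5. The enzyme scale set size factors by the median ratio over 23 secreted genes. Its 95% intervals use 6 degrees of freedom. Scripts were tested on simulated data. Alternatives were DESeq2 1.42.0 size factors and its Wald test, no filter, TMM without acinar genes, total-count and pan-endocrine scaling, the replicate block and each library left out; Python 3.11.15 with scipy 1.17.1 and pandas 2.3.3 served the rest. GC content and windows shared by genes came from GENCODE M21 transcripts.

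The members and lists were chosen with earlier results of these data known. The naming rule took values in every library for the 4 factors and 8 enzyme or granule genes, the highest and lowest change in each comparison, the genes not called where nearly all were, up to 4 genes of smallest adjusted p in each further list, and the 10 genes most alike in course. Prss1, Prss3, Spink1, the model-named genes and Gata and Reg levels were chosen or given more fully after their values were seen. The values of 1 gene that the rule would name are not reported here.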

Additional observations from a re-analysis of the deposited data

Results flagged for a closer look

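The effect of STZ against vehicle differed between the genotypes, by the interaction term of edgeR's quasi-likelihood fit, for 32 of the 32 genes at 24 h and for 31 at 4 wk (knockout effect minus control effect, log2). At 24 h the differences of the enzymes and the granule gene were 3.24 for Prss2, 3.46 for Ctrb1, 2.83 for Cela2a, 3.08 for Cpa1, 3.03 for Pnlip, 3.15 for Amy1, 3.24 for Rnase1 and 3.18 for Gp2. Those of the factors were 1.71 for Bhlha15, 2.89 for Ptf1a, 3.41 for Rbpjl and 3.12 for Nr5a2.

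At 4 wk the differences were 2.54 for Prss2, 2.59 for Ctrb1, 2.40 for Cela2a, 2.38 for Cpa1, 2.62 for Pnlip, 2.77 for Amy1, 2.41 for Rnase1 and 2.69 for Gp2. For the factors they were 1.44 for Bhlha15, 2.68 for Ptf1a, 2.34 for Rbpjl and 2.65 for Nr5a2. Each of these 24 values passed the threshold.

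Relative to the enzymes, the difference at 24 h was 3.09 for Prss3, 1.60 for Prss1, 0.82 for Try5, 0.75 for Try4 and -1.43 for Bhlha15. At 4 wk it was -0.97 for Bhlha15. The same knockout and control vehicle libraries enter every one of these values.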

How the results depend on the processing

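Call counts of the 32 genes held within 1.5 times under every alternative for knockout against control under vehicle and at 24 h, for STZ against vehicle in both genotypes, for 4 wk against 24 h in knockout and for both interactions. Counts with each of the 12 libraries left out in turn, where a group left with 1 library takes its spread from the others, were 25 to 32 under vehicle, 19 to 29 at 24 h and 6 to 9 at 4 wk for knockout against control. They were 32 to 32 and 15 to 20 for 24 h against vehicle in knockout and control, 22 to 31 and 18 to 25 for 4 wk against vehicle, 19 to 30 and 1 to 10 for 4 wk against 24 h, and 32 to 32 and 25 to 32 for the interactions. Knockout against control at 4 wk called 6 genes with total-count scaling, 24 with pan-endocrine scaling, 18 with a GC offset and 18 with a GC offset and the replicate block, against 10. In control, 4 wk against 24 h called 4 with total-count scaling, 14 with DESeq2's Wald test, 19 with a GC offset and 18 with a GC offset and the block, against 9. Counts over all genes are given below only for the replicate block alone and the crossed pairing. For the other alternatives they are not given. A higher count is thus not read as a gain of the 32 genes.

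Factors called relative to the enzymes numbered 2 with a GC offset under vehicle (knockout against control; 1 to 2 with a library left out), 3 at 24 h, where the sum of directions reversed (1 to 2), and 1 at 4 wk (0 to 1). With a GC offset they numbered 2 for 24 h against vehicle in knockout (1 to 2; Nr5a2 reversed, at 0.32), 2 for 4 wk against vehicle in control (0 to 1), 3 for 4 wk against 24 h in knockout, reversed (1 to 3), 2 in control (0 to 1), and 2 in the interaction at 4 wk; 4 wk against vehicle in knockout gave 1 to 2 with a library left out. DESeq2 gave 1, 2 and 1 for 4 wk against vehicle in control and 4 wk against 24 h in knockout and control. The cause was not tested. The shares of all genes that passed under these alternatives are not given, so these counts have no background beside them. In the main fit on the enzyme scale those shares ran from 9.83% to 86.2% by comparison.

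The letters A and B did not pair all groups in the same way, but their gaps were shared. The correlation of A minus B over all tested genes was 0.151 to 0.785 between STZ groups and 0.357 between the vehicle groups. Between a vehicle and an STZ group it was -0.703 to -0.0123. The main fit left the letter out. With the letter as a replicate block, the counts were 29, 23 and 8 for knockout against control under vehicle, at 24 h and at 4 wk. Of all 17411 genes, 1478, 7058 and 4419 were called there in either direction, against 1673, 7484 and 4838 in the main fit. A crossed pairing, added after seeing the data, gave 14 in control for 4 wk against 24 h and 14 for knockout against control at 4 wk. Of all genes it called 1620 and 6851, against 956 and 4838 in the main fit. Calls thus rose over all genes too, so these counts are not read as a gain of the acinar genes. Total-count scaling moved the median gene of knockout against control by 0.529, -0.242 and -0.080 in the 3 conditions and pan-endocrine scaling by -0.403, 1.681 and 0.725, with no member median changing sign; the member medians are given beside the comparisons. The call on Prss3 in knockout for 4 wk against vehicle, at -0.55, changed sign to 0.30 with pan-endocrine scaling.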

Other observations

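Outside the acinar lists, 120 of 13073 genes with a mean of at least 2 CPM had a Pearson correlation over 0.9 with the mean log2 CPM of the secreted enzymes over the 12 libraries. The 10 highest were Myc (0.9938), Padi2 (0.9918), Ano1 (0.9887), Chst2 (0.9864), Ppib (0.9856), Muc1 (0.9846), Klk1b5 (0.9801), Lcmt1 (0.9792), Eif3h (0.9748) and Rpl32 (0.9746). The points share libraries and scaling, and the correlation is a description. Among the 23 secreted enzymes the median correlation over 253 pairs was 0.915 and the lowest 0.643.

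Dnase1, on the list of other acinar secreted genes, had 58.47 and 60.36 CPM in knockout STZ 4 wk, against 0.08224 and 0.1456 CPM in control STZ 4 wk. It was at 0 in both control vehicle libraries. The median log2 fold change of that list at 4 wk was 0.292, and the intestine list given above was also higher in knockout there. The part of that tissue in the level of Dnase1 was not tested.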
